A study of Mus musculus with 8 samples.

Results

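The genes described here are 37 genes of DNA damage signalling and repair, each represented by 1 probe set, in whole-genome expression arrays of the E12.5 mouse brain. They comprise 5 checkpoint kinases, 5 damage mediators, 3 genes of the clamp that marks damaged DNA and of its loader, 9 genes of break end processing and homologous recombination, 5 Fanconi anaemia genes, 5 end joining genes, 3 genes of single-strand break repair and 2 genes of mismatch repair and lesion bypass. The members were chosen by name and pathway. Where several probe sets named a gene, the one with the highest mean over all arrays was taken. All 37 were measured, out of 18194 genes represented in the same way. In 4 arrays the embryos carried the *Nestin Cre* transgene and were homozygous for the GTi allele of *Rest* (*Cre+, Rest GTi/GTi*, called *Cre+* below), and in 4 control arrays the embryos were *Rest GTi/GTi* littermates without Cre. All were labelled strain C57/BL6, age E12.5, brain. GTi is a gene trap cassette turned so that *Rest* is spliced normally. Cre turns it back, which stops *Rest* transcription before the coding exons, and the Nestin promoter limits this to neural progenitors and the cells that come from them. Microglia are not of this lineage, and whether Cre acted in cells of vessels or mesenchyme is not given in the labels. No array carried the Cre transgene with a wild type *Rest*, so effects of Cre and of REST loss cannot be told apart. The replicates were labelled biological replicates, and how many embryos gave the RNA of an array was not given, so the p-values measure the spread between these 8 arrays.

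Dividing neural progenitors copy their whole genome in every S phase, and broken or unreplicated DNA is detected by the kinases ATM and ATR, which activate the checkpoint kinases CHK2 and CHK1 and halt the cycle. Breaks are then repaired by homologous recombination, which copies an intact sister chromatid, or by end joining, which rejoins the ends directly, while the Fanconi anaemia proteins remove crosslinks between DNA strands. Many of these steps are switched on by phosphorylation and ubiquitination of proteins that are already present, and many of the genes are transcribed in G1 and S phase under the control of E2F factors.

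The promoters of the genes are shown first, because E2F factors time the transcription of many S phase genes and because REST binds DNA through the RE1 motif. RefSeq promoters (build GRCm38.p6, 250 bases before to 50 bases after a start) were given for 28 of the 37 members, and both strands were searched for the E2F letters TTTCCCGC, TTTGGCGC, TTTGCCGC and TTTCGCGC. A match could overlap that of another motif searched. These letters were found in 9 of the 28 members, or 32.1%, beside 2.6% of 27025 genes in the same table and 3.8% of the measured genes. They were found in 46.4% of 28 DNA replication genes and in 6.45% of 62 further repair genes. For the 7 members whose match lies before the start, the 30 bases around it are printed on the strand of the gene, 5′ to 3′, with the E2F letters or their reverse complement in capitals.
Chek2: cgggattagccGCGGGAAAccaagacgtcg
Mdc1: ttttcttcagcctgTTTCCCGCcggtagcc
Topbp1: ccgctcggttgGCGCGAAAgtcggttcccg
Brca2: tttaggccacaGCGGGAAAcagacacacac
Bard1: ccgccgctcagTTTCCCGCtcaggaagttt
Fancg: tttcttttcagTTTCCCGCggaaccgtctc
Xrcc6: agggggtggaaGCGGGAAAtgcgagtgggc
The windows lie at chr5:110839820-110839849 on the plus strand for *Chek2*, at chr17:35841468-35841497 on the plus strand for *Mdc1* and at chr9:103305187-103305216 on the plus strand for *Topbp1*. That of *Brca2* is at chr5:150522442-150522471 on the plus strand and that of *Xrcc6* at chr15:82016312-82016341 on the plus strand. Those of *Bard1*, chr1:71103163-71103192, and of *Fancg*, chr4:43010335-43010364, are on the minus strand. The E2F letters of *Clspn* and *Msh6* lie after the start in the table. Of the RE1 motif, the left part TTCAGCACC was found in 1 of the 28 members, *Brca1*, and in 0.433% of all genes in the table. It is shown in capitals in the 30 bases at chr11:101551999-101552028 on the minus strand.
Brca1: cagaaacagtTTCAGCACCcccccccccca
The right part of the RE1 motif, GGACAGC, was found in 0 of the 28 members and in 7.59% of all genes in the table. Of these 8 windows, those of *Bard1* and *Brca1* lie outside the span that RefSeq gives the gene. The other 6 overlap it. Which transcripts lie there, and whether an exon or an intron does, was not looked up. The CCAAT box was found in 46.4% of the members and 41.1% of all genes, and the cell cycle letters TTTGAA in 7.14% of the members and 20.2% of all genes. A match of letters is a description of the sequence and not a site of binding.

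The quality of the comparison bears on every value that follows. The deposited intensities had medians of 40.9 to 68 on the 8 arrays, and were quantile normalized here, so all intensities below are on that normalized linear scale. Differences are log2(intensity + 16), *Cre+* minus control. *Rest* itself measured 163, 217, 84.4 and 134 on the *Cre+* arrays and 170.1, 272, 211 and 198 on the control arrays by its brightest probe set. The log2 difference was -0.51 (SE 0.247), the groups overlapped, and the two-sided exact permutation p was 0.143, so *Rest* did not separate the labels at this probe set. The probe set next in brightness measured 161, 204, 76.6 and 77.1 on the *Cre+* arrays and 185, 223, 158 and 213 on the controls. Its difference was -0.63 (SE 0.288, exact permutation p = 0.143), and these groups overlapped too. At both probe sets *Cre+* replicates 3 and 4 lay below every control. All 4 *Cre+* arrays and controls 1 and 4 had signal of the Y-linked gene *Eif2s3y* (627 to 845), while controls 2 and 3 did not (0.21 and 5.66) and had *Xist* at 7875 and 8247. Neural progenitor markers (12 of 12 measured, 0 called, median difference -0.04) and neuron markers (11 measured, 0 called, median -0.03) were present in both genotypes, for example the progenitor factor *Sox2* at mean intensities of 3979 and 4277. Of 12 mesenchyme markers 0 were called, but their mean stood 2.31 and 3.41 above the control mean on *Cre+* replicates 1 and 2 and at -0.08 and -0.32 on replicates 3 and 4. Of 12 microglia and macrophage markers 8 rose, and their mean was 1.06 to 1.27 above the control mean on all 4 *Cre+* arrays. In whole tissue, fewer cells of a type and less RNA per cell cannot be told apart, and the part of these cell types in the values below was not tested.

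None of the repair and checkpoint genes passed the test between the genotypes. By limma with Benjamini-Hochberg adjustment over all 45037 probe sets tested, 0 of 37 members rose and 0 fell at an adjusted p below 0.05, and the smallest adjusted p was 0.674, for *Fanca*. Of all 18194 genes, 41 were called (39 rose and 2 fell), or 0.225%, so that calls were rare among all genes too. At an unadjusted p below 0.05 there was 1 member, *Fanca*, higher in *Cre+*, beside 6.97% of all genes. In 0 of 37 members did the 4 arrays of one genotype lie wholly above or below those of the other, beside 4.64% of all genes. The differences ran from -0.29 (*Fancd2*) to 0.22 (*Fanca*), with 18 members above 0 and 19 below, and a median of -0.00449 beside -0.00136 for all genes.

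The intervals give the size of change in intensity plus the added constant that these arrays leave possible. For dim genes such as *Bard1*, a change of this sum is smaller than the change of the intensity itself. The folds below, of members and of all genes, are therefore not limits on the intensity of dim genes. The 95% interval of the difference lay wholly within 1.3-fold in both directions for 27 of 37 members, beside 54.5% of all genes. The 10 members whose intervals reached beyond 1.3-fold in either direction were *Chek1*, *Wee1*, *Rif1*, *Bard1*, *Wrn*, *Fanca*, *Fancc*, *Fancl*, *Fancd2* and *Rad18*. The interval lay within 1.5-fold for 35 members, with *Wrn* and *Fancd2* outside, beside 80.8% of all genes. It lay within 2-fold for all 37 members and for 96.5% of all genes. With a constant of 1 the interval lay within 1.5-fold for 34 members, and with a constant of 50 for all 37. The SE of a difference ran from 0.0616 (*Lig3*) to 0.242 (*Wrn*), with a median of 0.0998.

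**Figure D1:**
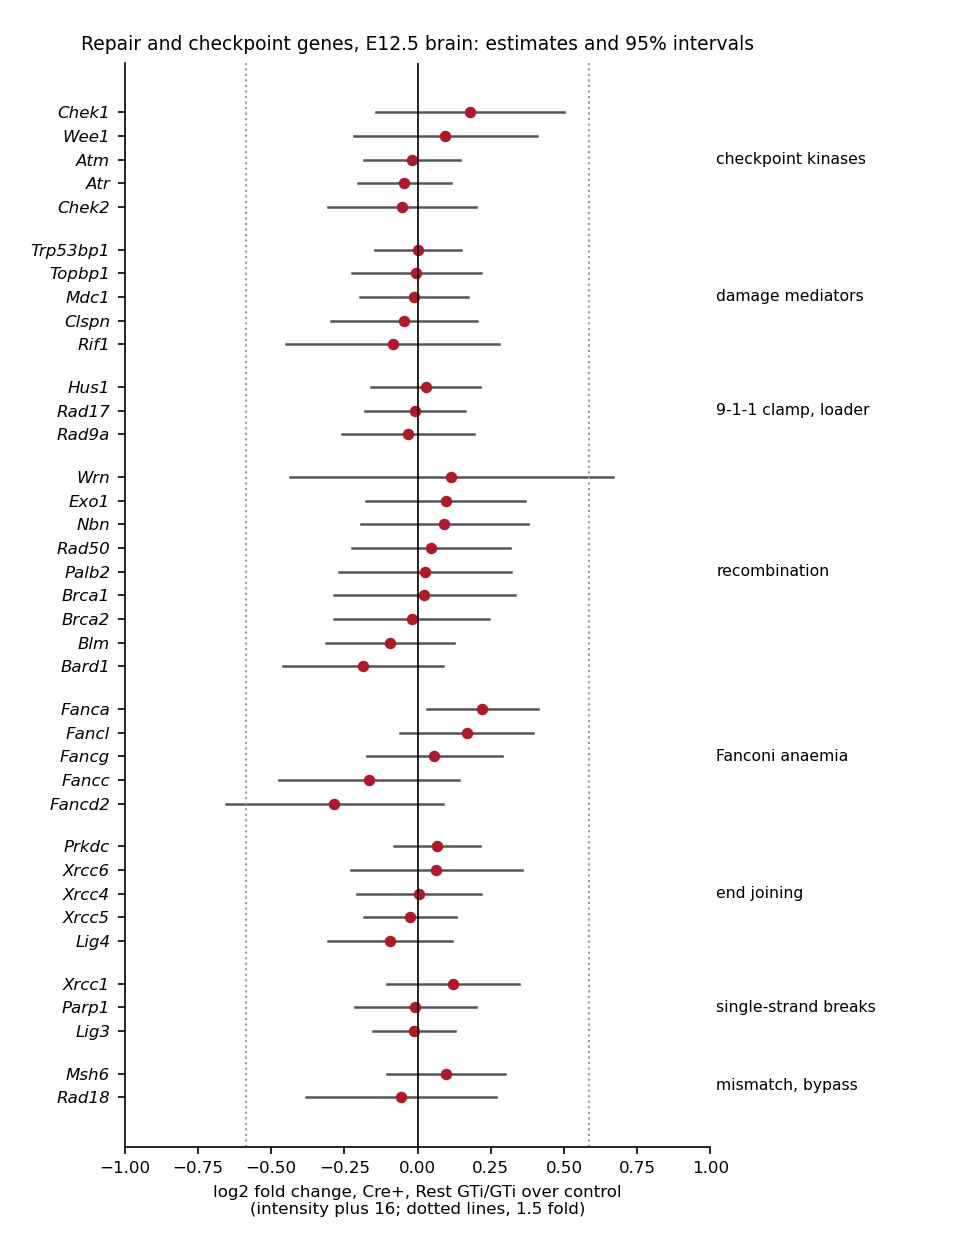
Log2 difference of intensity plus 16 (x axis, *Cre+* minus control, 4 arrays each) for the 37 members (y axis, grouped by role). Points are limma estimates, bars are 95% intervals and dotted lines mark 1.5-fold. The interval of *Fanca* alone, 0.03 to 0.41, leaves out 0, and those of *Wrn* and *Fancd2* cross a dotted line.

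Among the checkpoint kinases, 0 of 5 were called and the median difference was -0.02. *Atm* encodes the kinase that double-strand breaks activate. It measured 686, 611, 619.6 and 689.7 on the *Cre+* arrays and 656, 694, 662 and 627 on the control arrays. The 2 sets of arrays covered nearly the same range, and the difference was -0.02 (SE 0.072, 95% interval -0.18 to 0.14). *Atr*, the kinase of stalled replication forks, differed by -0.05 (SE 0.0694), with 418 to 475 against 445 to 472. Its target *Chek1*, which holds cells in S phase and G2, measured 729.9, 493, 504 and 551 on the *Cre+* arrays and 439, 496, 587 and 471 on the controls. At this probe set the excess of 0.18 (SE 0.141, limma adjusted p = 0.877) came with 1 array, replicate 1, above all others, while the other 3 lay among the controls. *Chek2*, the target of ATM whose E2F letters are printed above, lay at 138 to 193 against 152 to 185. *Wee1*, which keeps the cyclin-dependent kinases inactive, measured 765, 717, 609 and 698 on the *Cre+* arrays and 719, 589.9, 526 and 797 on the controls. Its difference was 0.09 (SE 0.137), and the lowest of its 8 values were those of controls 2 and 3, which had the *Xist* signal. With *Eif2s3y* as a covariate the difference of *Wee1* was -0.14, and against controls 1 and 4 alone it was -0.12.

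Among the damage mediators, which gather repair factors on broken DNA, 0 of 5 were called and the median difference was -0.01. *Trp53bp1* encodes 53BP1, which protects break ends and favours end joining. It measured 5249.6, 4849.8, 5286 and 4917 on the *Cre+* arrays and 5069.8, 5132, 5204 and 4861 on the controls. The lowest and highest of the 8 arrays were both *Cre+*, and the difference at this probe set was 0.00 (SE 0.0643, 95% interval -0.15 to 0.15). *Rif1*, which acts with 53BP1 and times replication, measured 1256, 999, 1118 and 1386 on the *Cre+* arrays and 1054, 1639.8, 1315 and 1087 on the controls. Its difference of -0.09 (SE 0.159) was set by control replicate 2, the highest array, with the others interleaved. *Clspn*, the adaptor that couples ATR to CHK1, measured 980.2, 729, 713 and 792 against 807, 892, 829.9 and 772, a difference of -0.05 (SE 0.109), and again *Cre+* replicate 1 was the highest of all. *Mdc1*, which binds phosphorylated histone H2AX beside breaks, and *Topbp1*, which activates ATR, differed by -0.01 (SE 0.0812) and -0.00449 (SE 0.0966). Both carry E2F letters, as shown above.

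The clamp of RAD9, HUS1 and RAD1 is loaded by RAD17 onto damaged DNA and helps to activate ATR. *Rad9a* measured 251, 191, 214 and 242 on the *Cre+* arrays and 234, 206, 239 and 239 on the controls, a difference of -0.03 (SE 0.0986). *Hus1* measured 620.3, 532, 515 and 536 against 531, 549, 502 and 574, a difference of 0.03 (SE 0.0815). For both genes the highest of the 8 values was again that of *Cre+* replicate 1, and the remaining arrays overlapped. *Rad17* differed by -0.01 (SE 0.0753), with 556 to 654 against 579 to 641. Of these 3 genes 0 were called.

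Of the 9 genes of break ends and homologous recombination 0 were called, 6 lay above 0 and 3 below, and the median difference was 0.02. *Rad50* and *Nbn* encode parts of the complex that first holds and trims break ends, and differed by 0.05 (SE 0.118) and 0.09 (SE 0.125). *Exo1*, the exonuclease that lengthens the trimmed end, differed by 0.10 (SE 0.118). *Brca1*, which directs breaks to recombination, measured 868, 722, 648 and 788 on the *Cre+* arrays and 596, 799, 875 and 719 on the controls, a difference of 0.02 (SE 0.135), and its lowest and highest arrays were both controls. *Brca2*, which acts in strand exchange, measured 504, 409, 333 and 431 against 404, 436, 431 and 415. Its 4 *Cre+* arrays spanned a wider range (SD 70.3) than its controls (SD 14.8), around the same mean (419 and 421). *Palb2*, which joins BRCA1 to BRCA2, differed by 0.02 (SE 0.129). *Bard1*, the partner of BRCA1, was dim, with 24.0, 12.4, 15.2 and 22.0 against 19.7, 24.2, 25.6 and 21.7. Its difference of -0.19 (SE 0.12, limma adjusted p = 0.825) therefore depends on the constant of 16, which is near the signal itself. The helicase *Blm*, mutated in Bloom syndrome, differed by -0.09 (SE 0.0955). The helicase *Wrn*, mutated in Werner syndrome, measured 107, 86.4, 114 and 64.7 on the *Cre+* arrays and 68.6, 111, 52.0 and 115 on the controls. Arrays of both genotypes were scattered over the whole range of *Wrn*, and the interval of its difference of 0.11, from -0.44 to 0.67, was the widest among the members.

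The Fanconi anaemia genes spread most, from -0.29 to 0.22, with 0 of 5 called and a median difference of 0.06. *Fanca*, a subunit of the core complex that ubiquitinates FANCD2, measured 209, 171, 195 and 204 on the *Cre+* arrays and 157, 161, 159 and 181 on the controls. Of the 4 *Cre+* arrays 3 lay above every control, and replicate 2 lay below control 4. The difference was 0.22 (SE 0.0833, 95% interval 0.03 to 0.41), with an unadjusted limma p of 0.0276 and an adjusted p of 0.674. *Fancl*, the ubiquitin ligase of the core complex, measured 403, 338, 353 and 459 against 333, 357, 343 and 335, a difference of 0.17 (SE 0.0998) carried by replicates 1 and 4. *Fancd2*, the protein that is ubiquitinated at crosslinks, measured 107, 90.2, 73.9 and 103 on the *Cre+* arrays and 91.7, 98.9, 151 and 133 on the controls. Controls 3 and 4 were above all other arrays, controls 1 and 2 lay among the *Cre+* arrays, and the difference was -0.29 (SE 0.162, 95% interval -0.66 to 0.09, limma adjusted p = 0.801). Without control 1 the unadjusted p of *Fancd2* fell below 0.05. The core complex genes *Fancc* and *Fancg* differed by -0.17 (SE 0.135) and 0.06 (SE 0.101), so that members of the same complex lay on either side of 0.

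**Figure D2:**
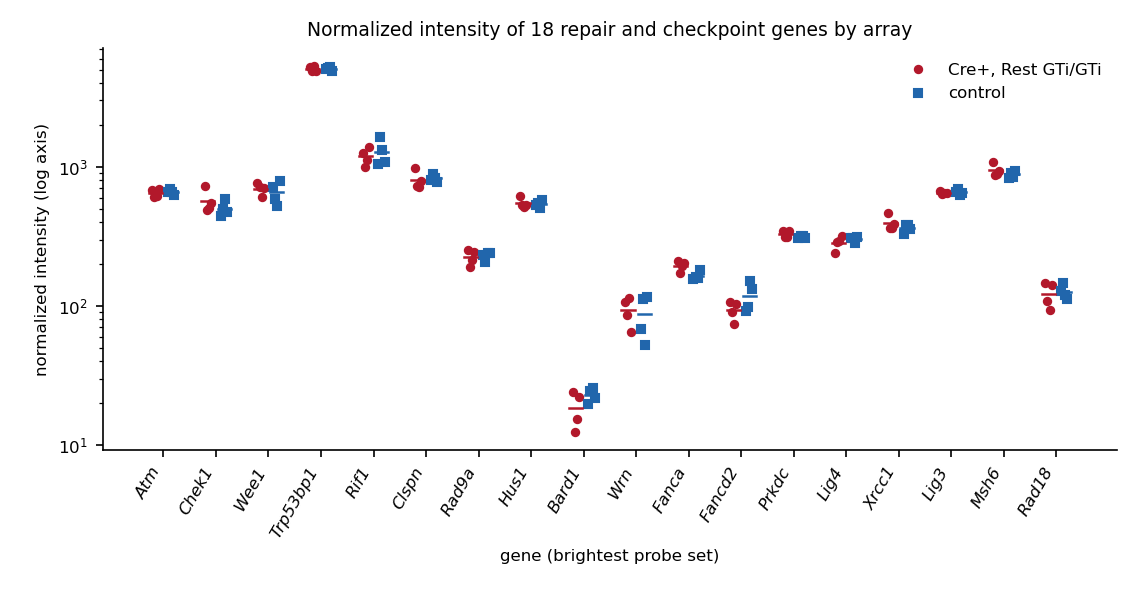
Normalized intensity on each array (y axis, logarithmic) for 18 members (x axis): *Cre+* arrays as red circles, controls as blue squares, 4 each, with the mean of each genotype as a bar. The genotypes overlap for every gene shown. Levels of different genes come from different probes and are not to be compared.

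In end joining, 0 of 5 genes were called and the median difference was 0.00. *Xrcc5* and *Xrcc6* encode the Ku proteins that bind free ends, and differed by -0.03 (SE 0.0687) and 0.06 (SE 0.128). *Prkdc*, the kinase that Ku recruits, measured 343, 314, 313 and 345 on the *Cre+* arrays and 309.9, 316, 316 and 310.0 on the controls. Replicates 1 and 4 stood above the controls and replicates 2 and 3 beside them, with a difference of 0.07 (SE 0.0644, 95% interval -0.08 to 0.21). *Lig4*, the ligase that seals the ends, measured 239, 286, 293 and 319.8 against 309.7, 306, 285 and 311, a difference of -0.09 (SE 0.0929). *Cre+* replicate 1 was the lowest of all 8 arrays for *Lig4*, an exception to the high values of that array. It was also the lowest for its partner *Xrcc4* at the probe set used (109, against 124 to 143 on all other arrays). At the other probe set of *Xrcc4*, *Cre+* replicate 1 measured 106, against 101 to 121 on the controls. The difference of *Xrcc4* was 0.00 (SE 0.0923) at the probe set used and 0.10 (SE 0.0865) at the other.

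In single-strand break repair, *Parp1*, which senses breaks and marks them with poly(ADP-ribose), differed by -0.01 (SE 0.0899), with 1421 to 1734 against 1472 to 1759. *Xrcc1*, the scaffold that PARP1 recruits, measured 466, 361, 363 and 390.0 on the *Cre+* arrays and 326, 381, 378 and 357 on the controls, a difference of 0.12 (SE 0.0987). Its partner ligase *Lig3* measured 669, 636, 645 and 649.8 against 655, 692, 632 and 647. *Lig3* had the smallest spread of all members, and its interval of -0.15 to 0.13 around a difference of -0.01 was correspondingly narrow. *Msh6*, which recognises mismatched bases left by replication, measured 1085, 866, 892 and 940.2 against 835, 909.6, 848 and 933, a difference of 0.10 (SE 0.0878). *Rad18*, the ligase that marks PCNA for lesion bypass, measured 146, 108, 93.5 and 140.4 against 128, 146, 119.9 and 111, a difference of -0.06 (SE 0.142). Of these 5 genes 0 were called and the groups overlapped for each.

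The mean of the members moved between arrays of the same genotype, with an SD of 0.084 within genotypes. The mean of the 37 members relative to the control mean was 0.13, -0.06, -0.10 and 0.06 on the 4 *Cre+* arrays and -0.08, 0.05, 0.00 and 0.03 on the controls. *Cre+* replicate 1 held the highest of the 8 values for 13 members, and replicate 3 the lowest for 11. Of the controls, replicate 1 held the lowest value for 9 members and the highest for 0. The mean of 34 DNA replication genes stood at 0.22, -0.04, -0.13 and 0.04 on the *Cre+* arrays and at -0.07, 0.04, 0.00 and 0.02 on the controls. The arrays with the highest and lowest mean were the same for the repair genes and the replication genes. The mean of 24 mitosis genes stood at 0.20, -0.06, -0.23 and -0.02 on the *Cre+* arrays. Other lists also differed between these arrays. Neuron markers stood at -0.26, -0.04, 0.13 and -0.03 on the *Cre+* arrays and at 0.08, -0.10, -0.004 and 0.02 on the controls. Within each genotype they were lowest where the repair genes were highest and highest where the repair genes were lowest. Erythroid markers stood at 0.69, -0.05, -0.33 and -0.02 on the *Cre+* arrays and at -0.31, -0.06, 0.15 and 0.21 on the controls, and hindbrain Hox genes at -0.60, 0.62, 1.78 and 1.18 and at 0.81, -0.32, -0.42 and -0.07. The mesenchyme mean was high on *Cre+* replicates 1 and 2, as given above. The part of these cell types in the order of the members' means was not tested. Of the DNA replication and mitosis genes 0 were called, with median differences of 0.02 and -0.02. Of 17 measured targets of p53, which act after the checkpoint kinases, 5 rose and 0 fell, beside 0.225% of all genes called. The targets were mixed, with 14 above 0 and 3 below, from -0.11 (*Btg2*) to 1.37 (*Eda2r*). The mean of the 17 was 0.52, 0.55, 0.47 and 0.43 above the control mean on the 4 *Cre+* arrays. It was within 0.02 of the control mean on each control, in contrast to the repair genes on the same arrays.

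**Figure D3:**
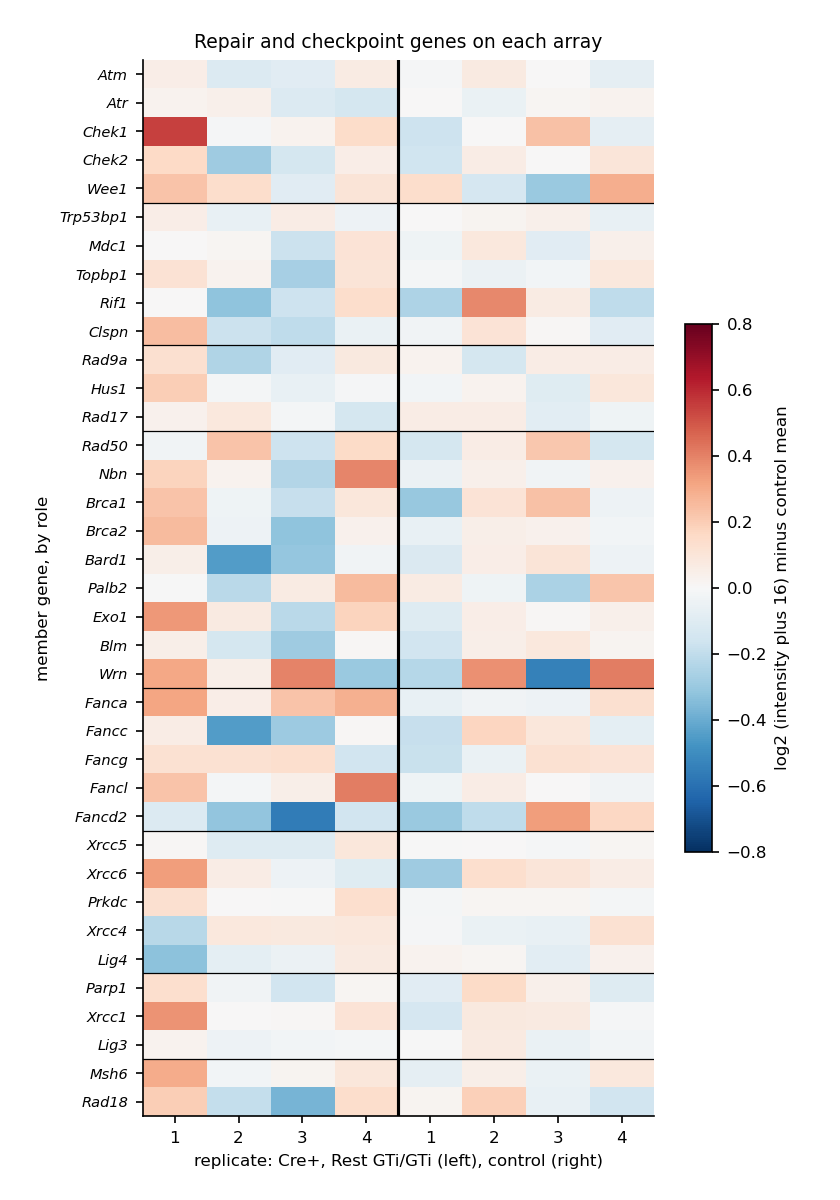
Each member's log2(intensity + 16) minus its control mean (colour scale) on each array (x axis, *Cre+* replicates left of the bar, control replicates right) by gene and role (y axis). Replicate 1 of *Cre+* is mostly red, with 32 members above the control mean, and replicate 3 mostly blue, with 10 above it.

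**Figure D4:**
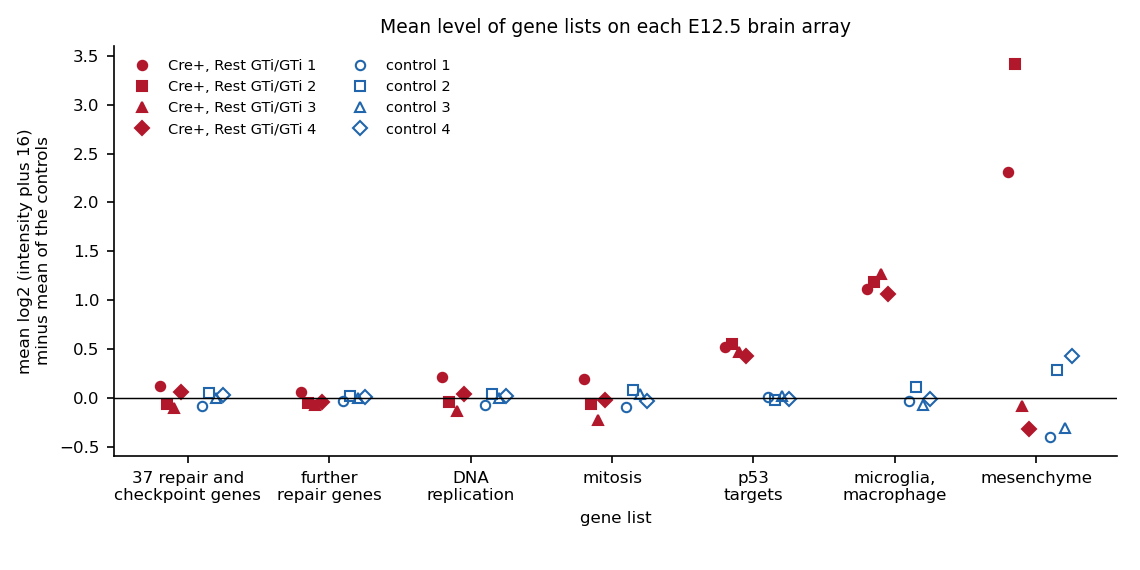
Mean log2(intensity + 16) of 7 gene lists (x axis) on each array minus the mean of the controls (y axis). Filled red symbols are the 4 *Cre+* arrays and open blue symbols the 4 controls. Both genotypes lie around 0 for repair, replication and mitosis genes, the *Cre+* arrays lie at 0.43 to 0.55 for p53 targets, and the mesenchyme genes are high on replicates 1 and 2.

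The differences of the members with and without E2F letters in the promoter covered overlapping ranges. The 9 members with the letters had a median difference of -0.01 (range -0.19 to 0.10), and the 19 without had a median of -0.01 (range -0.17 to 0.22). *Brca1*, with the left part of the RE1 motif, differed by 0.02.

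Further genes of the same pathways gave the same count of calls. Of 82 listed, 74 were measured, and 0 rose and 0 fell, beside 0.225% of all genes called. Of the 74, 32 lay above 0 and 42 below, with a median of -0.01. The other 8 were not analysed here. Intervals, again of intensity plus the added constant, lay within 1.5-fold for 70 of the 74, beside 80.8% of all genes. At an unadjusted p below 0.05 there were 3 genes higher and 2 lower out of 74, beside 6.97% of all genes in either direction. *Polk*, a polymerase of lesion bypass, measured 265, 192, 181 and 216 on the *Cre+* arrays and 149, 187, 183 and 139 on the controls, a difference of 0.34 (SE 0.136, limma adjusted p = 0.69). *Poli*, another such polymerase, went the other way, with 113, 93.2, 86.4 and 90.3 against 119, 123, 116 and 113, a difference of -0.26 (SE 0.0849, limma adjusted p = 0.593), and its lowest control lay just below its highest *Cre+* array. *Xrcc3*, a gene of homologous recombination, measured 113, 109, 76.5 and 114 against 68.7, 74.8, 70.7 and 99.4, a difference of 0.33 (SE 0.143, limma adjusted p = 0.719). The dim genes *Ercc6*, of transcription-coupled repair, and *Rad9b*, a second form of the clamp subunit, differed by 0.24 (SE 0.0927) and -0.56 (SE 0.175). *Rad9b* had 23.8, 19.3, 20.4 and 6.17 against 35.5, 28.2, 30.2 and 34.7. It was the 1 gene of the 74 whose groups did not overlap, beside 4.64% of all genes. All 10 measured genes of base excision and single-strand breaks on this further list lay below 0, from -0.16 (*Neil1*) to -0.000149 (*Parp2*), with 0 called. The median of all genes was -0.00136. The single-strand break genes among the members went both ways, with *Xrcc1* at 0.12 and *Parp1* and *Lig3* at -0.01. By role, the medians ran from -0.07 (mismatch repair and end joining) to 0.03 (nucleotide excision).

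Other probe sets of the members were read beside the brightest. The 37 members had 84 probe sets, 47 of them not the brightest, for 23 members. Of the 84, 0 were called, the smallest adjusted p was 0.593 and the differences ran from -0.31 to 0.59. The second probe set of *Fanca*, with a mean of 31.0, differed by 0.06. For *Chek1*, the probe set next in brightness differed by 0.18 (SE 0.093), as the brightest did. It measured 567, 471, 457 and 553 on the *Cre+* arrays and 410, 476, 458 and 451 on the controls. Here both replicates 1 and 4 of *Cre+* lay above every control. The brighter of the other *Fancd2* probe sets differed by 0.08, against -0.29 for the brightest. For *Fancc*, a probe set close in brightness to the one used measured 88.1, 91.4, 94.7 and 101.8 on the *Cre+* arrays and 113.9, 110.0, 122.5 and 104.6 on the controls. These groups did not overlap, and the difference was -0.23 (SE 0.0733, limma adjusted p = 0.593). It was the 1 of the 47 further probe sets without overlap, beside 4.64% of all genes. The remaining probe set of *Fancc*, with a mean of 29.8, went the other way, with a difference of 0.59 (SE 0.279). A probe set of *Lig3* with a mean of 67.1 differed by -0.28 (SE 0.107, limma adjusted p = 0.687), while the brightest differed by -0.01. For *Trp53bp1*, the probe set next in brightness differed by 0.00 (SE 0.0792). Another, with a mean of 807, differed by -0.18 (SE 0.0935). It measured 673, 710, 882 and 768 on the *Cre+* arrays and 819, 831, 868 and 906 on the controls. Replicates 1, 2 and 4 of *Cre+* thus lay below every control there. The remaining probe sets of *Trp53bp1* differed by -0.06, -0.07 and -0.10. For *Rad18*, against -0.06 at the brightest, probe sets with means of 98.7 and 93.45 differed by -0.23 (SE 0.106) and 0.25 (SE 0.181). Its probe set with a mean of 54.8 differed by -0.08 (SE 0.139). Of the further probe sets, 8 had a mean below 16.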

How the data were processed

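RNA of E12.5 brain from 4 *Cre+, Rest GTi/GTi* and 4 control samples was hybridised to Affymetrix whole-genome mouse arrays by the authors. Per the labels and methods, the values were normalized by RMA, log2 transformed and compared by a t-test with Benjamini-Hochberg adjustment. The deposited values were intensities on a linear scale with unequal medians, and the step that made them is not given in the sources used here. They were therefore quantile normalized, 16 was added, and log2 was taken before limma (version 3.58.1, R 4.3.3) was fitted to the 8 arrays with lmFit and eBayes, as settled with earlier results in view. Left out were 64 Affymetrix control probe sets. Of 45037 probe sets tested, 34945 named 1 gene, 932 named several and 9160 named none, and only the first kind represented a gene, by the GEO platform annotation. A call was a Benjamini-Hochberg adjusted p below 0.05 over all probe sets, and intervals are at 95%. The scripts were tested on simulated data. With 4 arrays per genotype, their number limits the precision. The 37 members, the other gene lists, the letters searched and the rule for values given on every array (members at an unadjusted p below 0.05, the 2 of each role with the largest change, and *Atm* and *Trp53bp1*) were chosen with earlier results of these data known. Values on every array were also given for *Brca1* and *Brca2* and for *Fancl*, chosen after their values were seen. Alternatives were another scaling, constant, filter, probe set choice, test, covariate or choice of arrays. Sequences are from RefSeq tables of build GRCm38.p6, in which promoters of 28 members matched by gene ID. Embryo sex is not in the labels.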

Additional observations from a re-analysis of the deposited data

Results flagged for a closer look

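Each genotype has 4 arrays, and for each of the 37 members the gap between an extreme array and its nearest neighbour was set against the whole range of its genotype. Of 74 such groups 4 exceeded the critical ratio of 0.829, and chance gives about 1 in 20. Among the controls, *Rad9a* had a ratio of 0.835, with replicate 2 at 206 and the others at 234 to 239. *Fanca* had a ratio of 0.829 among the controls, with replicate 4 at 181 and the others at 157 to 161. Among the *Cre+, Rest GTi/GTi* arrays, *Fancg* had a ratio of 0.962, with replicate 4 at 95.5 and the others at 119 to 119.7. *Xrcc4* had a ratio of 0.973 there, with replicate 1 at 109 and the others at 138. The 4 values came from 4 different arrays.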

How the results depend on the processing

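Over 25 alternatives, 0 of the members and 0 of the further repair genes were called by limma, or by the methods' t-test in its place, and the smallest adjusted p of any member was 0.579 (*Fanca*, with a constant of 50). The difference of *Fanca* stayed above 0 in the 24 alternatives that measured it (0.14 to 0.30), with an unadjusted p below 0.05 in 13. The number of members at an unadjusted p below 0.05 was 0 instead of 1 after scaling to a common median, without scaling, with the mean of all probe sets, without less specific probe sets (34 members measured), with *Eif2s3y* as a covariate and against controls 1 and 4 alone. It was 0 to 1 when 1 array was left out, and without control replicate 1 the 1 was *Fancd2*, lower. The median of the members lay between -0.07 (common median, which put all genes at -0.04) and 0.05 (no scaling, all genes at 0.05), and the count of intervals within 1.5-fold between 26 (no scaling) and 37. Of 448 values of the 18 members that the naming rule chose, 8 moved by 1 SD or more, and 7 of the 18 members had no change of sign. Among all genes, the 41 calls became 2 without scaling, 26 with a constant of 1, 14 and 0 by the methods' t-test with equal variances and with the Welch correction, 14 with *Eif2s3y* and 22 with the mesenchyme mean as a covariate, 0 when replicates 1 and 2 of *Cre+, Rest GTi/GTi* were both dropped, 7 against controls 1 and 4 alone, and 21 to 31 when 1 array was left out. The cause of these changes was not tested. With the replicate block, 0 genes were called, 1 member had an unadjusted p below 0.05 and 34 intervals lay within 1.5-fold. Residuals of same-numbered arrays correlated at -0.20 to 0.04 and of other arrays at -0.10 to 0.15. Pairing by replicate number was thus not evident, but with 4 arrays per genotype these correlations cannot exclude it. *Rest* stayed below 0 in all 25 alternatives. For dim members such as *Bard1* the added constant limits the size of change that can be read.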
